A study of Mus musculus with 9 samples.

Results

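The genes described here encode the enzymes and transporters of glycolysis and the products of the hypoxia response. They were taken as a list of 38 symbols, chosen by function and with earlier results of these data known. Of the 38, 34 were measured among the 17097 genes tested. Shares of all genes given below beside counts of members are therefore a description and not a test of the list. Gpi1, Eno1 and P4ha1 had no probe set with a single gene symbol in the platform annotation used here, and Pgam1 had only a probe set shared with other symbols. These 4 genes were not analysed here.

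RNA was measured in basal epidermal cells sorted from the tail skin of CD1 mice 4 days after a wound of 3 mm. The sort kept cells with surface α6-integrin, a marker of the basal layer, and dropped those with CD34, a marker of the hair follicle bulge. The leading edge (LE), the ring of epidermis bordering the wound, was cut out by a punch of 4 mm, with a further gate for α5-integrin-positive cells. A punch of 6 mm gave the proliferative hub, the ring behind the LE, with a gate for α5-integrin-negative cells. Skin distant from the wound gave the control cells, for which no α5-integrin gate is named. Every group had 3 arrays, each from 300 cells with skin pooled from 5 mice. No genetic change was given for these animals. The labels call the arrays biological replicates and the study's methods call them technical, so the p-values below reflect only how these samples vary, and that variation may be technical. Region and gate changed together between LE and hub and cannot be told apart. The same limit holds for both comparisons with control, since no α5-integrin gate is named for the control cells. In these sorted cells, a change in the mix of cells and a change of RNA per cell cannot be told apart either.

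In glycolysis, glucose enters through a transporter, is split into triose phosphates in the upper steps and is turned into pyruvate in the lower steps, which yield ATP without oxygen. Pyruvate is then reduced to lactate and exported with a proton, or enters the mitochondria. When oxygen is scarce, prolyl hydroxylases no longer mark the α subunits of hypoxia-inducible factor (HIF) for destruction, and HIF raises transcription of many of these same enzymes, of factors that recruit vessels and of proteins that clear mitochondria. In keratinocytes HIF is known to be induced at wound margins. All of this is background and not a result of these arrays.

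HIF binds a short core, ACGTG or GCGTG, which reads CACGT or CACGC on the opposite strand. To show where this core lies near members with different patterns, stretches upstream of the start site are given from 5′ to 3′ in the direction of the gene, from the RefSeq annotation of mouse GRCm38.p6, with each core in capitals. Slc16a3 and Bnip3 stood highest at the LE, lower in the hub and lowest in control skin, Hk2 and Pfkfb3 stood apart at the LE, and Pgk1 and Ldha are enzymes with small steps between regions.
Slc16a3: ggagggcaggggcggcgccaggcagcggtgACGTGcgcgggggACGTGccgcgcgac
Bnip3: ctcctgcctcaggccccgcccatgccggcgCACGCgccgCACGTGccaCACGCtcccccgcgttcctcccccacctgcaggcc
Hk2: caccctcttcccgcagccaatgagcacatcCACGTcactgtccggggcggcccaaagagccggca
Pfkfb3: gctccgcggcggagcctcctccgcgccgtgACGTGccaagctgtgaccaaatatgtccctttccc
Pgk1: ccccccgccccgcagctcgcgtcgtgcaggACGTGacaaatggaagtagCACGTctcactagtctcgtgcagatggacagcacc
Ldha: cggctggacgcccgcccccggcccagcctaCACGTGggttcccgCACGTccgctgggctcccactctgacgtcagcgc

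The Slc16a3 stretch is chr11:120949010-120949066 on the plus strand and ends at the base before the start site. The Bnip3 stretch is chr7:138909571-138909653 on the minus strand. The Hk2 stretch is chr6:82774472-82774536 on the minus strand, and the Pfkfb3 stretch is chr2:11553955-11554019, also on the minus strand. The Pgk1 stretch is chrX:106186920-106187003 on the plus strand, and the Ldha stretch is chr7:46845726-46845803 on the plus strand. In Bnip3 and Ldha the letters CACGTG hold the core on both strands and were counted as 2 matches.

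RefSeq promoter windows, reaching from 250 bases before to 50 bases after a start site, were present for 31 of the 34 members. Ndrg1, Bnip3l and Bhlhe40 had no entry. The core was found on either strand in at least 1 window of 29 of these 31 members (93.5%), against 8058 of 13605 tested genes with a window (59.2%) and 46.7% of all genes in the promoter table. Among members that were higher at the LE than in the hub it was found in 15 of 16 (93.8%), and among members not called between these regions in 14 of 14 (100%). The core thus did not separate the members called higher from those not called. Members not called are not shown to be unchanged, and so few members lacked the core that these shares could hardly differ. Tpi1 and P4ha3 were the members without the core in this window. A gene with several windows has more chances of a match. Counted by window, 38 of 49 member windows held the core (77.6%), against 9295 of 17065 windows of all tested genes (54.5%). Member windows had a median GC content of 64.7%, against 58.3% in windows of all tested genes, and the part of base composition in these shares was not tested. A match of these letters is a description and not a site of binding.

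Many of the genes stood highest at the LE, lower in the hub and lowest in control skin. In the fit across all 17097 genes, 18 of the 34 members rose at the LE relative to the hub (limma, Benjamini-Hochberg adjusted p under 0.05, two-sided), where 5.39% of all genes rose. A single member fell, P4ha3, where 5.23% of all genes fell. The median difference of the members was 0.32 on the log2 scale, and that of all genes was -0.01. Relative to control skin, 26 members rose at the LE, where 11.9% of all genes rose, and 2 fell, where 10.8% fell. In the hub 11 rose relative to control, where 4.16% of all genes rose, and 1 fell, where 3.12% fell. Median member differences were 0.54 for LE minus control and 0.23 for hub minus control, against 0.02 and 0.03 over all genes. Both comparisons with control share the same 3 control arrays. Values below are RMA signals on a log2 scale, and differences are given with the standard error (SE) of the fit.

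**Figure D1:**
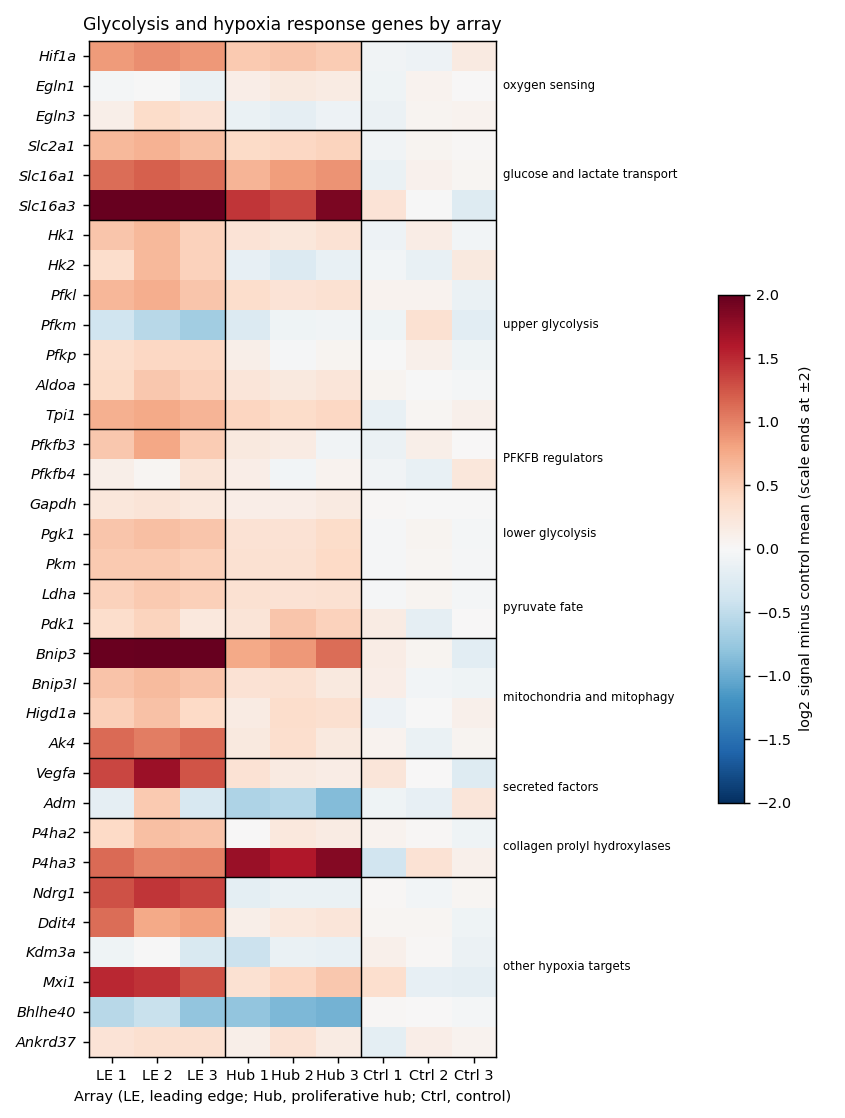
Log2 signal of the 34 members (rows, by role) on each of the 9 arrays (columns), minus the mean of the 3 control arrays, with colours ending at ±2 on the log2 scale. Slc16a3 and Bnip3 have the deepest red at the LE and lighter red in the hub, Ndrg1 is red at the LE alone, P4ha3 is deepest in the hub and Bhlhe40 is blue in both wound regions.

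All 3 LE arrays lay above all 3 hub arrays for 27 members, where 14.5% of all genes did so. For 17 of the 34 members every LE array lay above every hub array and every hub array above every control array, where 4.03% of all genes had this order. The 17 were Hif1a, Slc2a1, Slc16a1, Slc16a3, Hk1, Pfkl, Aldoa, Tpi1, Gapdh, Pgk1, Pkm, Ldha, Bnip3, Bnip3l, Higd1a, Ak4 and Ddit4. Among the transporters, the enzymes of the chain from hexokinase to lactate dehydrogenase and Pdk1, only Hk2, Pfkm, Pfkp and Pdk1 lacked this order.

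Among the genes of oxygen sensing, the RNA of Hif1a was graded, and its protein was not measured. Hif1a, which encodes the oxygen-regulated α subunit of HIF, had log2 signals of 11.46, 11.52 and 11.46 at the LE, 11.13, 11.15 and 11.10 in the hub and 10.52, 10.50 and 10.77 in control skin. No group overlapped another. LE minus hub was 0.35 ± 0.08 (adjusted p = 0.023), LE minus control 0.88 ± 0.08 and hub minus control 0.53 ± 0.08 (adjusted p = 0.00486). A dimmer Hif1a probe set, with a mean of 8.23, was not called in any comparison.

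Egln3, a prolyl hydroxylase that is itself a HIF target, had 11.08, 11.32 and 11.25 at the LE, 10.83, 10.78 and 10.85 in the hub and 10.84, 11.01 and 11.03 in control skin. The LE arrays were the highest, and the hub and control arrays overlapped. LE minus hub was 0.40 ± 0.08 (adjusted p = 0.0153), whereas LE minus control was 0.26 ± 0.08 and was not called (adjusted p = 0.0536). Egln1, the main oxygen-sensing hydroxylase, was called in no comparison, with -0.22 ± 0.07 for LE minus hub (adjusted p = 0.0807).

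The largest difference between LE and control among the members was that of a lactate carrier. Slc16a3, a lactate and proton exporter typical of glycolytic cells, had 11.08, 11.21 and 11.05 at the LE, 9.75, 9.65 and 10.20 in the hub and 8.58, 8.30 and 8.06 in control skin. The groups stood in 3 separate steps. It rose by 1.24 ± 0.16 at the LE relative to the hub (2.37-fold, adjusted p = 0.00116) and by 2.80 ± 0.16 relative to control. The hub already stood 1.55 ± 0.16 above control (adjusted p = 0.000701). The control mean of Slc16a3, 8.32, lay within the upper range of nonspecific background, so no fold over it is given.

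Slc16a1, the second monocarboxylate carrier, had 10.93, 11.00 and 10.92 at the LE, 10.48, 10.64 and 10.71 in the hub and 9.67, 9.89 and 9.85 in control skin. Most of its step lay between hub and control, 0.81 ± 0.09, and the further step from hub to LE was 0.34 ± 0.09 (adjusted p = 0.0351). Slc2a1, the main glucose transporter of basal keratinocytes, had 12.88, 12.94 and 12.83 at the LE, 12.62, 12.65 and 12.68 in the hub and 12.16, 12.29 and 12.27 in control skin. It rose in both wound regions relative to control, by 0.65 ± 0.07 at the LE and 0.41 ± 0.07 in the hub. Its LE and hub arrays did not overlap, yet the difference of 0.24 ± 0.07 missed the threshold (adjusted p = 0.0531).

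In the upper steps of glycolysis, 4 of the 7 measured enzymes rose at the LE relative to the hub and 6 relative to control, while 1 fell relative to control. Hk2, the inducible hexokinase that traps glucose in the cell, had 10.02, 10.33 and 10.13 at the LE, 9.51, 9.40 and 9.53 in the hub and 9.62, 9.53 and 9.87 in control skin. The LE stood apart and the hub lay at or just under the lowest control array, with LE minus hub at 0.68 ± 0.11 (adjusted p = 0.00357) and hub minus control at -0.19 ± 0.11 (not called). Hk1, the constitutive hexokinase, was instead graded, at 0.29 ± 0.08 for LE minus hub (adjusted p = 0.0578) and 0.55 ± 0.08 for LE minus control (adjusted p = 0.0011).

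The isoforms of phosphofructokinase, the committed step of the pathway, differed from each other. Pfkl, the liver isoform, had 11.68, 11.75 and 11.58 at the LE, 11.38, 11.29 and 11.33 in the hub and 11.09, 11.09 and 10.89 in control skin. Pfkp, the platelet isoform, had 12.08, 12.14 and 12.13 at the LE, 11.83, 11.70 and 11.78 in the hub and 11.72, 11.82 and 11.63 in control skin. Both rose at the LE relative to the hub, Pfkl by 0.34 ± 0.08 (adjusted p = 0.0248) and Pfkp by 0.35 ± 0.07 (adjusted p = 0.0144).

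Pfkp in the hub overlapped control, and Pfkl in the hub was called above it at 0.31 ± 0.08 with an adjusted p of 0.0483, a call lost on leaving out any of the 9 arrays. Pfkm, the muscle isoform, went the other way, with 9.13, 8.97 and 8.83 at the LE, 9.25, 9.43 and 9.45 in the hub and 9.43, 9.82 and 9.31 in control skin. It fell by 0.55 ± 0.13 at the LE relative to control (adjusted p = 0.016) and was -0.41 ± 0.13 for LE minus hub (adjusted p = 0.0947).

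Aldoa, the aldolase that splits the sugar, was 0.23 ± 0.07 for LE minus hub (adjusted p = 0.0557) and rose at the LE relative to control by 0.46 ± 0.07. Tpi1, which interconverts the triose phosphates, had 12.08, 12.12 and 12.05 at the LE, 11.79, 11.73 and 11.79 in the hub and 11.22, 11.41 and 11.47 in control skin. Its 3 groups did not overlap, and LE minus hub was 0.31 ± 0.08 (adjusted p = 0.0305).

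The PFKFB enzymes make and remove the sugar bisphosphate that activates phosphofructokinase. Pfkfb3, whose kinase activity dominates, had 8.70, 8.92 and 8.66 at the LE, 8.36, 8.31 and 8.09 in the hub and 8.03, 8.27 and 8.16 in control skin. It rose at the LE by 0.51 ± 0.11 relative to the hub (adjusted p = 0.0131) and by 0.61 ± 0.11 relative to control, while hub and control overlapped. Pfkfb4 had 7.31, 7.24 and 7.45 at the LE, 7.33, 7.14 and 7.27 in the hub and 7.12, 7.05 and 7.42 in control skin. All groups of this dim gene overlapped and none of its differences was called.

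The lower steps held some of the brightest genes, with small differences. Pgk1, which makes the first ATP of the payoff phase, had 12.44, 12.48 and 12.44 at the LE, 12.17, 12.18 and 12.25 in the hub and 11.87, 11.94 and 11.85 in control skin. It rose at the LE by 0.26 ± 0.06 relative to the hub (adjusted p = 0.0296) and by 0.57 ± 0.06 relative to control. Ldha, which reduces pyruvate to lactate, had 12.96, 13.02 and 12.98 at the LE, 12.81, 12.79 and 12.81 in the hub and 12.49, 12.56 and 12.47 in control skin.

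Ldha thus had no overlap between groups, with 0.19 ± 0.06 for LE minus hub (adjusted p = 0.089), 0.49 ± 0.06 for LE minus control and 0.30 ± 0.06 for hub minus control (adjusted p = 0.0183). Pkm, pyruvate kinase, and Gapdh were also above control at the LE, by 0.50 ± 0.06 and 0.23 ± 0.06, and neither was called between LE and hub, at 0.17 ± 0.06 and 0.09 ± 0.06. The 95% interval of the LE minus hub difference of Gapdh ran from -0.05 to 0.22. The 6 members with a mean signal above 12 (Slc2a1, Aldoa, Gapdh, Pgk1, Pkm and Ldha) differed by 0.09 to 0.26 between LE and hub. The highest signal on any array was 13.70, and whether the top of the scale holds these differences down was not tested.

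Pdk1, the kinase that keeps pyruvate out of the mitochondria by inhibiting pyruvate dehydrogenase, did not follow the other genes. It had 9.95, 10.05 and 9.81 at the LE, 9.85, 10.15 and 10.05 in the hub and 9.76, 9.42 and 9.60 in control skin. LE and hub overlapped, at -0.08 ± 0.11 with a 95% interval of -0.33 to 0.17. Both wound regions lay above all control arrays without a call, at 0.34 ± 0.11 for LE minus control (adjusted p = 0.0588) and 0.42 ± 0.11 for hub minus control (adjusted p = 0.0562). The dimmer Pdk1 probe sets gave 0.10 and -0.33 for LE minus control and 0.23 and -0.29 for hub minus control, none called. The direction of Pdk1 relative to control thus depends on the probe set.

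**Figure D2:**
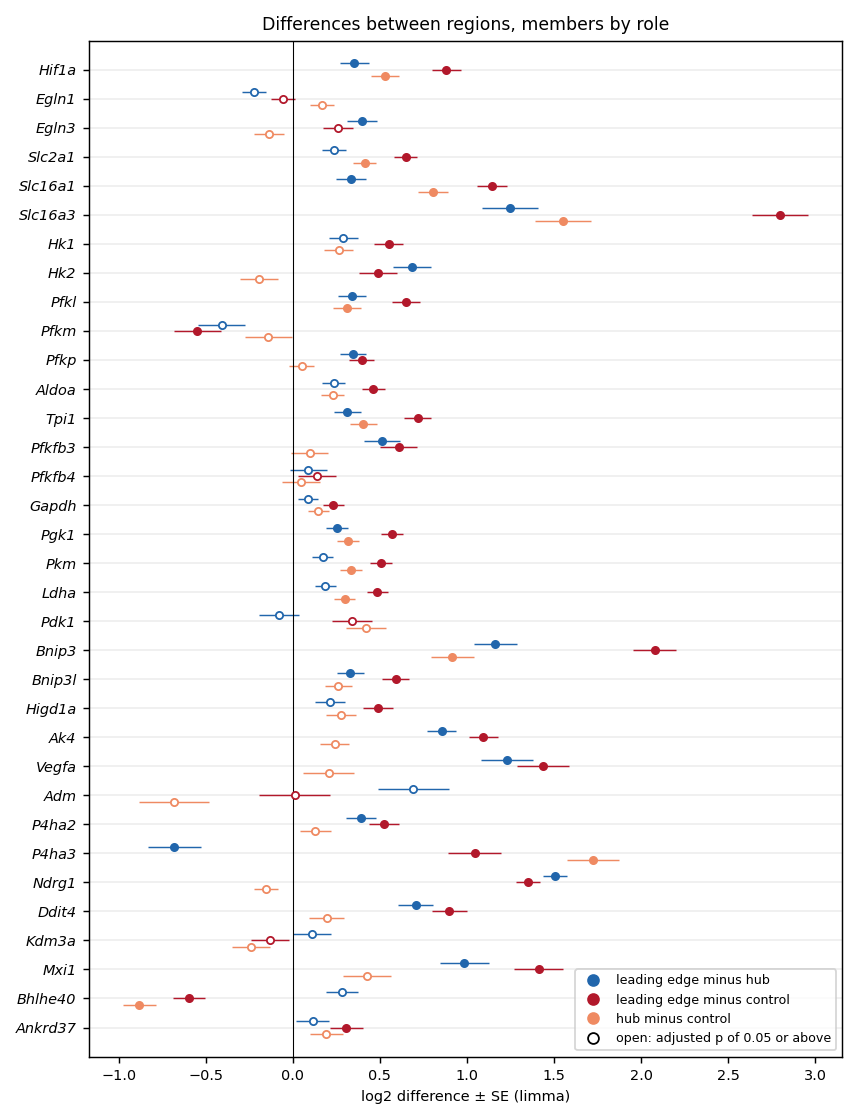
Log2 differences with SE for the 34 members, ordered by role, as LE minus hub (blue), LE minus control (dark red) and hub minus control (orange), with open points where the adjusted p was 0.05 or above. Slc16a3 reaches 2.80 for LE minus control and 1.55 for hub minus control, whereas Ndrg1 reaches 1.35 for LE minus control with hub minus control at -0.16.

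Of the 4 genes whose proteins act at mitochondria, 3 rose at the LE relative to the hub and all 4 relative to control. Bnip3, a receptor that targets mitochondria for autophagy, had 11.44, 11.69 and 11.48 at the LE, 10.22, 10.32 and 10.57 in the hub and 9.60, 9.51 and 9.25 in control skin. The groups formed 3 separate steps, with LE minus hub at 1.16 ± 0.12 (2.24-fold, adjusted p = 0.000391) and hub minus control at 0.91 ± 0.12 (adjusted p = 0.00262). LE minus control came to 2.08 ± 0.12, a 4.22-fold rise.

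Bnip3l, its relative, had 11.13, 11.18 and 11.13 at the LE, 10.85, 10.85 and 10.74 in the hub and 10.69, 10.49 and 10.47 in control skin, with LE minus hub at 0.33 ± 0.08 (adjusted p = 0.024). Ak4, an adenylate kinase of the mitochondrial matrix, had 9.95, 9.85 and 9.95 at the LE, 9.01, 9.16 and 9.01 in the hub and 8.90, 8.68 and 8.88 in control skin. It rose by 0.85 ± 0.08 at the LE relative to the hub (1.81-fold, adjusted p = 0.000258), and the hub lay 0.24 ± 0.08 above control without a call (adjusted p = 0.13). Higd1a, a small inner membrane protein of the respiratory chain, was called only for LE minus control, at 0.49 ± 0.09, and with the mean of its probe sets this difference was -0.029.

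Vegfa, the main growth factor for blood vessels, had 10.97, 11.35 and 10.88 at the LE, 9.93, 9.81 and 9.78 in the hub and 9.88, 9.64 and 9.37 in control skin. The LE arrays lay above all other arrays, and hub and control overlapped. LE minus hub was 1.23 ± 0.15 (2.35-fold, adjusted p = 0.000767) and hub minus control 0.21 ± 0.15 (95% interval -0.13 to 0.54). A dimmer Vegfa probe set gave 1.34 for LE minus hub. Adm, a peptide that widens vessels, was dim and varied within the LE, from 7.61 to 8.44, with 0.69 ± 0.20 for LE minus hub (adjusted p = 0.0611) and -0.68 ± 0.20 for hub minus control (adjusted p = 0.0815).

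The collagen prolyl hydroxylases, which stabilise the collagen helix, differed in direction between LE and hub, while both rose at the LE relative to control. P4ha2 had 8.94, 9.15 and 9.11 at the LE, 8.55, 8.76 and 8.71 in the hub and 8.61, 8.57 and 8.46 in control skin, and rose at the LE by 0.39 ± 0.09 relative to the hub (adjusted p = 0.0186) and by 0.52 ± 0.09 relative to control. P4ha3 had 8.07, 7.92 and 7.94 at the LE, 8.66, 8.54 and 8.77 in the hub and 6.55, 7.22 and 7.03 in control skin. It was highest in the hub and lowest in control skin, with no overlap. It fell by 0.68 ± 0.15 at the LE relative to the hub (adjusted p = 0.0189), rose by 1.04 ± 0.15 relative to control, and the hub stood 1.72 ± 0.15 above control (adjusted p = 0.000329). The means of P4ha3 in control skin, 6.93, and at the LE, 7.98, lay within the range of nonspecific background. The hub mean, 8.66, lay just above that range. The fall of P4ha3 between hub and LE is thus also near background, and no fold is given for this gene.

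Ndrg1, a stress-responsive gene widely used as a hypoxia marker, had the largest step between LE and hub of all members. It had 12.09, 12.24 and 12.17 at the LE, 10.62, 10.68 and 10.69 in the hub and 10.84, 10.76 and 10.85 in control skin. The LE arrays stood far above the rest and the hub arrays just under all control arrays. LE minus hub was 1.51 ± 0.07 (2.84-fold, adjusted p = 9.66e-06), LE minus control 1.35 ± 0.07, and hub minus control -0.16 ± 0.07 (adjusted p = 0.244).

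Mxi1, an antagonist of MYC, had 10.43, 10.38 and 10.20 at the LE, 9.23, 9.36 and 9.47 in the hub and 9.27, 8.77 and 8.74 in control skin. Ddit4, an inhibitor of mTOR signalling, had 10.30, 9.93 and 10.00 at the LE, 9.30, 9.39 and 9.42 in the hub and 9.22, 9.22 and 9.09 in control skin. Both rose at the LE relative to the hub, Mxi1 by 0.98 ± 0.14 (1.98-fold, adjusted p = 0.00195) and Ddit4 by 0.70 ± 0.10 (1.63-fold, adjusted p = 0.00191). Neither was called between hub and control.

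Bhlhe40, a transcriptional repressor that also acts in the circadian clock, fell in both wound regions. It had 10.63, 10.74 and 10.40 at the LE, 10.40, 10.29 and 10.23 in the hub and 11.21, 11.20 and 11.15 in control skin. All arrays of both regions lay under all control arrays. It fell by 0.60 ± 0.09 at the LE (adjusted p = 0.00123) and by 0.88 ± 0.09 in the hub (adjusted p = 0.000726). Kdm3a, a histone demethylase, was called in no comparison, and Ankrd37, an ankyrin repeat protein, was called only for LE minus control, at 0.31 ± 0.09 (adjusted p = 0.0422).

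**Figure D3:**
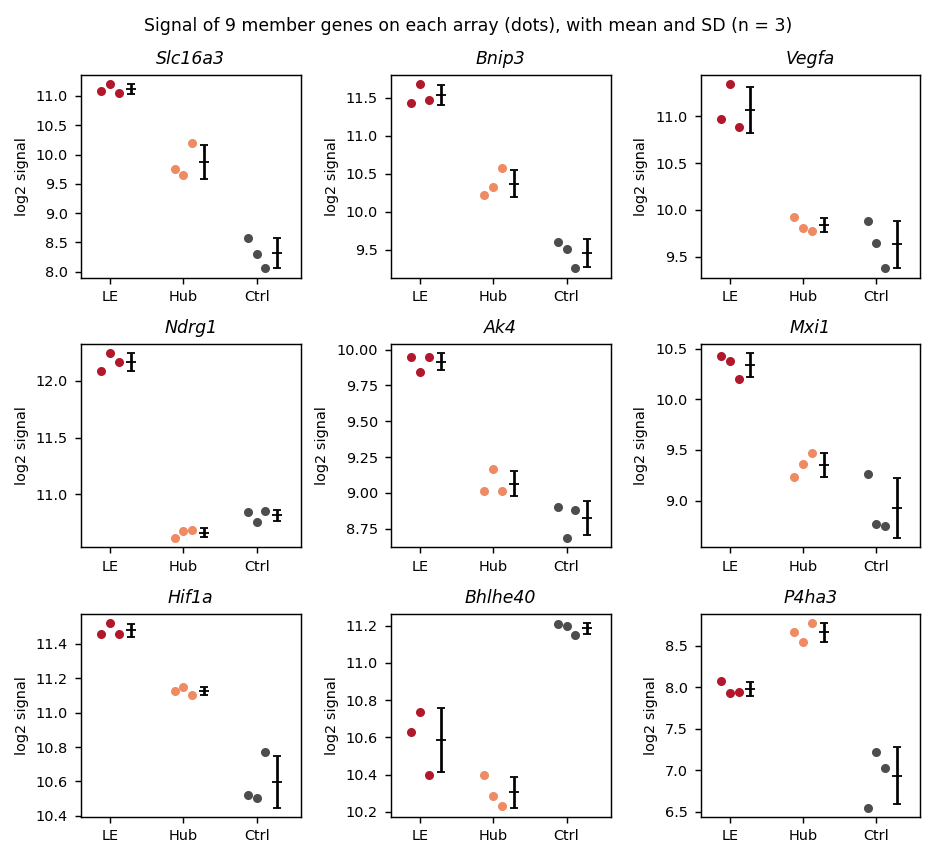
Log2 signal of 9 members on each array (dots), with mean and SD of the 3 arrays beside them, for LE, hub and control from left to right. Slc16a3, Bnip3 and Hif1a descend in 3 steps, Vegfa, Ndrg1, Ak4 and Mxi1 drop after the LE, Bhlhe40 is highest in control and P4ha3 is highest in the hub. Each panel has its own vertical scale.

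Where the hub stood relative to control varied among the members that rose between LE and hub. Of these 18, 7 were also called higher in the hub than in control, namely Hif1a, Slc16a1, Slc16a3, Pfkl, Tpi1, Pgk1 and Bnip3. The other 11 were Egln3, Hk2, Pfkp, Pfkfb3, Bnip3l, Ak4, Vegfa, P4ha2, Ndrg1, Ddit4 and Mxi1, whose hub minus control differences ran from -0.19 to 0.43 without a call. The sizes of both sets overlapped, since Pfkl and Pgk1 were called at 0.31 and Mxi1 was not at 0.43, and Bnip3l, Ak4 and Ddit4 had every hub array above every control array. No test set the 7 apart from the 11.

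Several genes had more than 1 probe set, and some of these disagreed. For 18 of the 34 members the array carried several, 61 probe sets in all, and the brightest stood for the gene. Adjusted p-values of single probe sets were taken over all probe sets with 1 symbol. With the average over each gene's probe sets, Hif1a, Egln3 and Pfkl were no longer called between LE and hub. Hif1a and Pfkl were no longer called between hub and control either. In that setting 1 other member was newly called between LE and hub and 4 between hub and control. A Pfkl probe set with a mean of 11.27 was called in both comparisons, at 0.36 and 0.41, and a dim one, with a mean of 7.70, in neither. For Higd1a the brightest gave 0.21 for LE minus hub, while the others gave -0.50 (adjusted p = 0.0179) and -0.44. For LE minus control its probe sets were called in opposite directions, at 0.49 and -0.45, so its direction depends on the probe set. The second probe set of Egln1 was called higher at the LE and in the hub than in control, by 0.49 and 0.45, where the brighter was not called. Ak4 had 5 probe sets, of which 3 were called higher at the LE than in the hub, at 0.85, 0.70 and 1.20, and 2 were dim, with means of 5.79 and 4.69, and gave 0.02 and 0.01. Nonspecific background, measured by 23 control probe sets, had its median at 4.66 and spanned 3.66 to 8.61, and 8 members (Slc16a3, Pfkfb3, Pfkfb4, Adm, P4ha2, P4ha3, Kdm3a and Ankrd37) had at least 1 group mean inside that range.

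**Figure D4:**
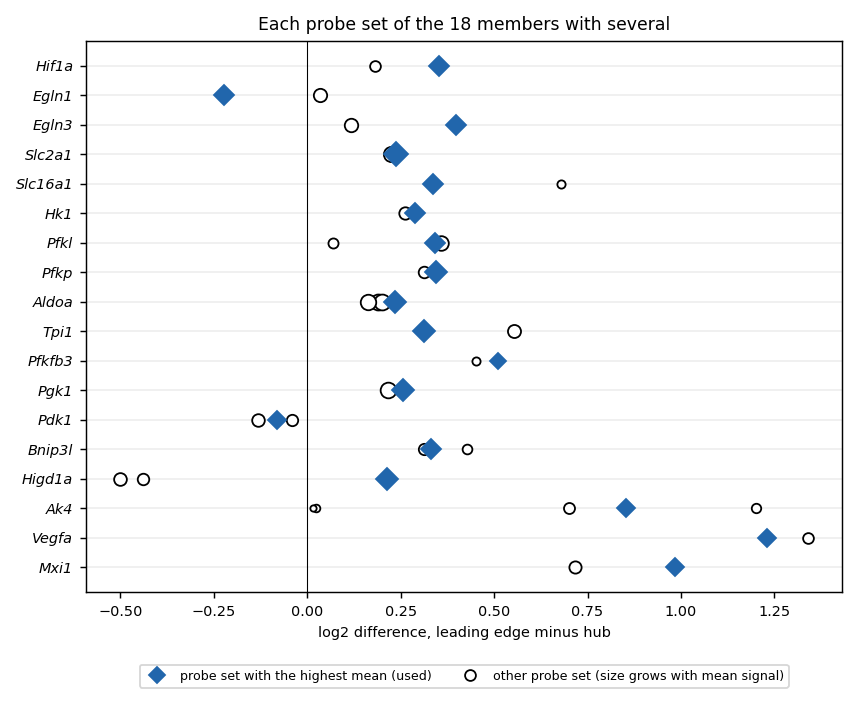
Log2 difference, LE minus hub, for each probe set of the 18 members with several, with the brightest as a filled diamond and others as open circles whose size grows with mean signal. The probe sets of Higd1a fall on both sides of 0, at 0.21, -0.44 and -0.50.

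The other genes of the pathway and its neighbours moved less uniformly. Of 10 measured regulators in the HIF pathway outside the members, among them other α and β subunits and factors that degrade or inhibit HIF, 0 were called by limma in any of the 3 comparisons. At an unadjusted p under 0.05, 3 of these 10 differed between LE and hub, 2 between LE and control and 0 between hub and control. At that threshold 1860 of all 17097 genes rose and 2020 fell between LE and hub. Between LE and control 3061 rose and 2652 fell, and between hub and control 1929 rose and 1402 fell. Unadjusted counts here and below are to be read beside these. Of 30 further genes known to be induced by hypoxia, 9 were called higher and 3 lower at the LE than in the hub. Relative to control, 14 were called higher and 8 lower at the LE. In the hub 5 rose and 5 fell relative to control. Hmox1, which degrades heme, rose at the LE by 1.82 ± 0.14 relative to the hub, and Car9, a carbonic anhydrase at the cell surface, by 1.76 ± 0.12. Selenbp1, a selenium-binding protein, fell by 1.68 ± 0.24.

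Other glycolytic genes and isoforms were close to the background shares of all genes. Of 23 measured, 1 rose and 1 fell at the LE relative to the hub, namely Slc2a4, the insulin-responsive glucose transporter, by 0.83 ± 0.13, and Pgam2, the muscle mutase, at -0.35 ± 0.09. Relative to control 3 rose and 3 fell at the LE, and 0 were called in the hub (2 at an unadjusted p under 0.05 in limma). For entry of pyruvate into mitochondria, 0 of 12 rose (1 at an unadjusted p under 0.05) and 2 fell at the LE relative to the hub, Pdk2 by 0.68 ± 0.18 and Pdp2 by 0.56 ± 0.12. These proteins have opposed roles, since Pdk2 is a kinase and Pdp2 a phosphatase of pyruvate dehydrogenase.

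In the tricarboxylic acid cycle 0 of 15 genes rose in limma (1 at an unadjusted p under 0.05) and 2 fell at the LE relative to the hub. These were Idh3g, by 0.34 ± 0.06, and Idh3b, by 0.26 ± 0.07, both subunits of the NAD-dependent isocitrate dehydrogenase. Relative to control 2 of the 15 rose and 3 fell at the LE. Of 5 genes of the pentose phosphate pathway, 0 were called by limma between LE and hub (2 at an unadjusted p under 0.05), and Pgd, which yields NADPH, rose relative to control by 0.95 ± 0.10 at the LE and 0.68 ± 0.10 in the hub. The median LE minus hub difference was -0.10 for pyruvate entry, -0.18 for the tricarboxylic acid cycle and -0.05 for the pentose phosphate pathway, beside 0.32 for the members.

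Markers of other cells were measured on the same arrays. Krt5 and Krt14, the keratins of the basal layer, lay between 13.23 and 13.34 on all 9 arrays, and 2 of 6 basal markers (Itga6, which the sort used, and Itgb4) rose at the LE relative to the hub. The mean of the 13 myeloid markers was 6.62, 5.93 and 6.47 at the LE and 5.92, 5.83 and 5.86 in the hub. In control skin it was 5.82, 5.85 and 5.82. At the LE 3 of the 13 (Cd14, Cxcr2 and Lcp1) rose relative to the hub, and 4 rose relative to control. At an unadjusted p under 0.05 in limma, 7 of the 13 were higher and 0 lower at the LE than in the hub. The LE minus hub difference was positive for 12 of the 13. Lyz2, a defining myeloid gene, had 8.25, 5.36 and 7.12 at the LE, against 5.19 to 5.38 in the hub, and Ptprc, the pan-leukocyte gene, stayed at 4.81 or less on all arrays, near the background median. LE replicates 1 and 3 were the arrays highest in myeloid markers. Without them the median LE minus hub difference of the 34 members was 0.37, against 0.32 with all arrays. The only LE array left, replicate 2, had the highest member mean of all 9 arrays (10.82). This median therefore cannot speak to the myeloid part. The members called were then 8, and the calls over all genes fell alike, to 587, against 1816 with all arrays. The lone LE array was assumed to vary like the other groups, and the part of myeloid cells in the member differences was not tested.

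The mean of the 10 endothelial markers was 7.39, 6.34 and 6.44 at the LE, 6.31, 6.79 and 6.75 in the hub and 6.34, 6.15 and 6.03 in control skin, and 0 of the 10 were called by limma in any comparison. At an unadjusted p under 0.05, 0 differed between LE and hub, 2 between LE and control and 1 between hub and control. Without LE replicate 1 and hub replicates 2 and 3, the arrays highest in endothelial markers, the median member difference was 0.30 for LE minus hub and 0.22 for hub minus control, against 0.32 and 0.23 with all arrays. The members called fell to 4 between LE and hub (Slc16a3, Bnip3, Ak4 and Ndrg1) and to 0 between hub and control. The calls over all genes fell alike, to 385 between LE and hub and 64 between hub and control, against 1816 and 1244 with all arrays. The lone hub array was assumed to vary like the other groups, and the part of endothelial cells was not tested.

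Of 6 suprabasal markers 3 fell at the LE relative to the hub. Krt1 had 12.09, 10.49 and 11.28 at the LE and 12.94 to 13.13 in the hub, and the mean of the list was 9.04, 8.57 and 8.80 at the LE, 9.37 to 9.46 in the hub and 9.22 to 9.47 in control skin. The fibroblast mean was 6.26 to 6.40 at the LE, 6.49 to 6.53 in the hub and 6.62 to 6.64 in control skin. Relative to control, 2 of the 8 fibroblast genes (Dcn and Thy1) were lower at the LE and 1 (Dcn) in the hub. Thy1, with the highest signal of this list, was the only 1 of the 8 lower at the LE than in the hub. Of 4 erythroid genes 1 (Hba-a2) was lower, and of 8 skeletal muscle genes 0 were called in limma (0 also at an unadjusted p under 0.05). The 3′ minus 5′ control signal of actin, a sign of RNA or amplification quality, was -0.39 to -0.28 at the LE, -0.49 to -0.46 in the hub and -0.51 to -0.45 in control skin. The part of suprabasal cells and of RNA quality in the member differences was not tested.

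**Figure D5:**
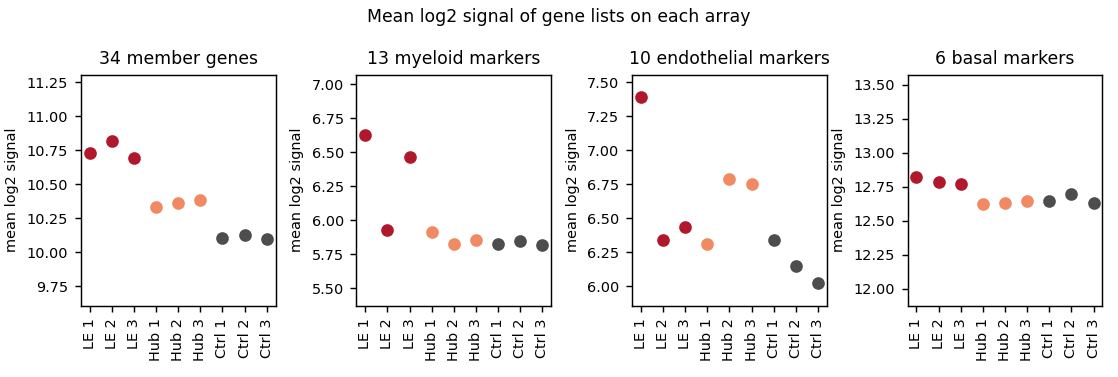
Mean log2 signal of the 34 members and of the myeloid, endothelial and basal marker lists on each array, from LE to hub to control, with the same span on every vertical axis. Member means run from 10.69 to 10.82 at the LE, 10.33 to 10.39 in the hub and 10.09 to 10.13 in control skin, whereas the myeloid mean is high on LE replicates 1 and 3 and the endothelial mean on LE replicate 1 and hub replicates 2 and 3.

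The firmness of the calls differed between members. Leaving out each of the 9 arrays in turn, Slc16a3, Hk2, Bnip3, Ak4, Vegfa, Ndrg1, Ddit4 and Mxi1 were called between LE and hub in all 9 fits, while the other 11 calls were lost in at least 1. Hif1a, Tpi1, Pgk1 and Bnip3l lost the call without any 1 of the 6 LE and hub arrays. Between LE and control 25 of the 28 calls held in all 9 fits, the exceptions being Ankrd37, Gapdh and Pfkm. Between hub and control 7 of the 12 held, namely Hif1a, Slc2a1, Slc16a1, Slc16a3, Bnip3, P4ha3 and Bhlhe40.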

How the data were processed

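The authors processed 9 Affymetrix mouse PM strip arrays with RMA and deposited 1 value per probe set on a log2 scale. For the RMA version, nothing is given in the sources used here. RMA gives all arrays 1 distribution, so a change in total RNA cannot be seen, and differences of dim genes are compressed. Array medians lay between 6.47 and 6.53, and the number of arrays limits the precision. Arrays of 1 group correlated at 0.988 to 0.995, those of different groups at 0.964 to 0.986, and 0 pairs were identical.

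Gene names came from the platform annotation. Of 45141 probe sets, 28898 had 1 symbol, 551 had several, 15588 had none and 104 were controls. Each of 17097 genes was read from its brightest probe set, by mean over 9 arrays. All arrays entered 1 model of group means (limma 3.58.1, R 4.3.3, lmFit and eBayes), with two-sided tests, Benjamini-Hochberg adjustment over all genes and calls at an adjusted p under 0.05. The methods of the study name a fold rule but no statistical test. The fit was tested on simulated data.

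Members and gene lists were chosen with earlier results of these data known. Values per array are given for members called between LE and hub and for key members of each role. Up to 3 other pathway genes per list and comparison were named, those with the largest called differences and no overlap of groups. Markers, probe sets, Pfkm and Bhlhe40 were singled out after their values were seen. The alternatives tried were the replicate number as a block, array weights, a trend of variance with mean, median centring, quantile normalization run again, the average over a gene's probe sets, dropping dim genes, fitting only the 6 arrays compared, fold rules and leaving out arrays.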

Additional observations from a re-analysis of the deposited data

Results flagged for a closer look

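For 3 members the LE and the hub differed from control skin in opposite directions, and the difference between the regions itself passed the test. For Ndrg1, LE minus control was 1.35 and hub minus control -0.16, a difference of 1.51 (limma, adjusted p = 9.66e-06). For Hk2 the values were 0.49 and -0.19, a difference of 0.68 (adjusted p = 0.00357). For Egln3 they were 0.26 and -0.14, a difference of 0.40 (adjusted p = 0.0153). None of the 3 was called between hub and control, and Egln3 was not called between LE and control (adjusted p = 0.0536), so these signs are not established. The second probe set of Egln3 gave -0.12 for LE minus control and 0.12 for LE minus hub (adjusted p = 0.632), and the call between LE and hub was lost in 3 of the 9 fits that left out 1 array and with the average over its probe sets. Groups of 3 arrays were too small for a test of single outlying arrays.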

How the results depend on the processing

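Between LE and hub 19 members were called, between LE and control 28 and between hub and control 12. With the replicate number as a block the counts were 17, 28 and 11 (lost: Tpi1, Pgk1 and Pfkl). Correlations of same-numbered arrays ran from -0.18 to 0.08 and gave no sign of pairing. With 3 arrays a group such values cannot exclude it, so whether the numbers pair the samples is unknown. Leaving out 1 array gave 8 to 21, 26 to 28 and 7 to 14 members. The lowest counts for LE against hub were 8 without LE replicate 2, 11 without hub replicate 1 or hub replicate 2 and 12 without LE replicate 3. Calls over all genes in these fits were 1225, 1299, 1270 and 1261 in that order, against 1816 with all arrays. Without LE replicate 1 or hub replicate 3, 13 members were called in each fit, with 1438 and 1336 calls over all genes. Member calls thus fell further in proportion than all calls without any single LE or hub array. The gap was widest without LE replicate 2, which had the highest member mean (10.82), and its reason was not tested. The 7 for hub against control came without hub replicate 3, where calls over all genes fell from 1244 to 699. Without LE replicates 1 and 3 (chosen after seeing the data), 8 members were called between LE and hub. Without LE replicate 1 and hub replicates 2 and 3 (also chosen after seeing the data), the counts were 4, 25 and 0, from fewer arrays. A change above 2-fold in every same-numbered pair left 2 (Vegfa and Ndrg1), 7 and 2, and an adjusted p under 0.05 with at least 2-fold left 4, 8 and 2.

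Signs turned in 13 values of single members, of which 1 was called, Higd1a for LE minus control, which became -0.029 with the mean of all probe sets. That mean also gave Higd1a -0.24 for LE minus hub, Egln1 0.21 for LE minus control and Pfkp -0.063 for hub minus control. Pfkfb4 and Pdk1 became -0.00342 and 0.030 for LE minus hub without LE replicates 1 and 3, and Pdk1 0.081 without LE replicate 1 and hub replicates 2 and 3. Adm for LE minus control became -0.020 with median centring and ran from -0.24 to 0.17 on leaving out 1 array. Hub minus control ran from -0.25 to 0.0075 for Pfkm and from -0.028 to 0.16 for Pfkfb4 in the same way. The cause of these turns was not tested. Of the members with a turn, Higd1a, Egln1, Pfkp, Pdk1 and Pfkm had no group mean within the background range. Separately, dim members such as Pfkfb4, Ankrd37 and Adm are limited by signal over background, and Ankrd37 had no turned sign.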
